A study of Mus musculus with 20 samples.

Results

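The collagen chain genes are the 44 genes, of 50559 listed in the count table, whose symbol is Col, a number, the letter a and a number. Every gene with such a name was taken, whatever its level, but the family was chosen with earlier results of these data known. RNA-seq had been run on whole livers of Cideb fl/fl mice, which are of the C57BL/6 strain, with 20 livers in all and 5 in each of 4 groups. All mice carried the floxed Cideb allele and an AAV vector with the TBG promoter, which is active in hepatocytes: AAV-TBG-GFP gave the WT groups and AAV-TBG-Cre the KO groups, so other liver cells of the KO mice keep an intact allele. WT and KO livers came from mice fed either a Western diet (WD), rich in fat, sugar and cholesterol, or CDA-HFD, a choline-deficient high-fat diet. The labels give 3 months of feeding for both diets and neither age nor sex, whereas the study's text gives a longer feeding on WD than on CDA-HFD for hepatocyte-specific KO mice. Nothing in the labels says more of the replicates than that they are separate liver samples, so the p-values measure the spread between these samples. Diet, feeding length and any batch shared by the livers of 1 diet cannot be told apart.

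Collagens are trimers of chains that share a Gly-X-Y repeat. The fibrillar chains (types I, II, III, V, XI, XXIV and XXVII) build the fibrils that give a tissue its tensile strength, and types I and III make up most of the scar in a fibrotic liver. Basement membrane chains (type IV) form the sheet under epithelia and around vessels, type VI forms beaded filaments, types VIII and X form networks, type VII anchors epithelia, and the fibril associated chains sit on the surface of fibrils. Types XV and XVIII, the multiplexins, lie next to basement membranes, and a few collagens span the cell membrane. In injured liver, hepatic stellate cells and portal fibroblasts that turn into myofibroblasts are the best known source of fibrillar collagen, while hepatocytes are a known source of type XVIII. In RNA from whole liver, fewer cells of a type and less RNA per cell cannot be told apart.

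The libraries held 11697049 to 16827147 reads on genes. Cideb, the deleted gene, averaged 6.06 ± 1.12 CPM (SD, n = 5) in WT and 0.155 ± 0.165 in KO livers on WD, and 3.05 ± 0.653 in WT and 0.163 ± 0.154 in KO livers on CDA-HFD, where CPM is the TMM-scaled count relative to library size, on the usual CPM scale. KO liver 5 on CDA-HFD stood apart from the other 4 livers of its group and is called KO liver 5 from here on. Its Cideb level, like that of every KO liver, was at or under 0.399 CPM, below every WT liver. Of the 35 chains tested on CDA-HFD, KO liver 5 was the highest of its group in 27 and the lowest in 6. Set against the WT livers on CDA-HFD, it fell inside their range in 16 chains, above it in 16 and below it in 3, whereas each of the other 4 KO livers lay below all WT livers in 23 to 25 chains. These positions were counted for the collagen chains alone and not over all genes. Leaving out KO liver 5 also raised the calls over all genes on CDA-HFD, from 8.19% higher and 7.29% lower to 19.6% and 21.8%. The positions are not read as a trait of collagen. The counts of called chains and the KO against WT differences of named chains on CDA-HFD are therefore given with and without KO liver 5. Since that liver was set apart by the same collagen levels that are then tested, the values without it describe how far a result rests on 1 liver and are not a separate test.

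Col1a2 and Col4a2 belong to the chains that rose on CDA-HFD, and Col18a1 and Col5a3 to the few that fell, and their promoter windows are shown for that contrast. The sequences are from RefSeq (GRCm38.p6), which matched 35 of the 44 chains with 38 promoters. Each runs 5′ to 3′ on the strand of the gene, and capitals mark GGGCGG or its reverse complement CCGCCC (the letters of the GC box), CCAAT or its reverse complement ATTGG, and TATAAA or its reverse complement TTTATA.
Col1a2 (chr6:4505368-4505667, + strand): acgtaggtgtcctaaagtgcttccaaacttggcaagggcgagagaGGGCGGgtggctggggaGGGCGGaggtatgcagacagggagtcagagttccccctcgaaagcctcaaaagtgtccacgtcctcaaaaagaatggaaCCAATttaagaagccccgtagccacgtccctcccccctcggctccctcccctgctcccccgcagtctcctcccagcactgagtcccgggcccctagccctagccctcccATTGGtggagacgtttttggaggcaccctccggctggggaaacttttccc
Col4a2 (chr8:11312555-11312854, + strand): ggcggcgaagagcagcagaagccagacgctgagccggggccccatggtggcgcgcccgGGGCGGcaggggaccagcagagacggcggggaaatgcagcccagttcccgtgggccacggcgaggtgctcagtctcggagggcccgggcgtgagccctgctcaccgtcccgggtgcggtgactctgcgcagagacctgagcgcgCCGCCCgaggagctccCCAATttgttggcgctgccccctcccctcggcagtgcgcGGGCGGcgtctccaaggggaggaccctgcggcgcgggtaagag
Col18a1 (chr10:77166481-77166780, - strand): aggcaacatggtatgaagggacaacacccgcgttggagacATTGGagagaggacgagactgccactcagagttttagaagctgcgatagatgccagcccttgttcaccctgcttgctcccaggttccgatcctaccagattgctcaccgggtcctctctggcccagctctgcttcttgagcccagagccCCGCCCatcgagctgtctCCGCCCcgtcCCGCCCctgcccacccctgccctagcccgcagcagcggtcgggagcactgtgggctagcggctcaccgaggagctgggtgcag
Col5a3 (chr9:20815018-20815317, - strand): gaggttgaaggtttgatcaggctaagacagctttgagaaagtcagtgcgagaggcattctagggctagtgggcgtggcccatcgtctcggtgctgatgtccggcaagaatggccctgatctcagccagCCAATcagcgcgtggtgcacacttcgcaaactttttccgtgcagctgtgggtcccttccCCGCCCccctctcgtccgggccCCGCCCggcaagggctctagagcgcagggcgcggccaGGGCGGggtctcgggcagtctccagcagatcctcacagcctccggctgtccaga

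All 4 windows held CCAAT and GGGCGG on either strand and none held TATAAA. RefSeq lists a further window for Col18a1 that held none of the 3 motifs, and the window of Col3a1, which rose, held TATAAA alone. Of other chains that rose, the window of Col8a1 held GGGCGG alone and that of Col6a3 none of the 3 motifs. The 4 windows shown thus do not stand for all chains that rose or fell. Over the 38 collagen windows, GGGCGG was present in 23 (60.5%), against 35.7% of the 32851 promoters in the table. CCAAT was present in 13 (34.2%), against 37.4% of all promoters, and TATAAA in 5 (13.2%), against 13.6%. The windows of different genes share bases where the genes are neighbours, and a match is a description of the letters, not a site.

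The type IV genes lie in pairs, head to head, in GRCm38. Col4a1 (chr8:11198423-11312826, minus strand) and Col4a2 (chr8:11312805-11449287, plus strand) start 21 bases apart and overlap, so reads on 22 exonic bases of Col4a1 could belong to either gene if the counting did not use strand. Col4a4 and Col4a3 start 72 bases apart on chromosome 1, and Col4a6 and Col4a5 start 1309 bases apart on chromosome X. Exons of other genes covered at most 6.07% of the merged exons of any chain, the highest share being that of Col9a3, which shares 234 bases with Tcfl5 on the opposite strand. Col4a3 shares 5.65% of its exonic bases with the antisense gene C430014B12Rik, and its values carry that uncertainty.

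By group mean, Col18a1 was the most abundant chain per length in all 4 groups. Its mean level was 182 CPM per kb of exon in WT and 216 in KO livers on WD, and 109 in WT and 175 in KO livers on CDA-HFD. On WD the next chains were Col14a1, at 32.3 CPM per kb in WT and 31.7 in KO livers, and Col3a1, at 23.5 and 17.5. On CDA-HFD, Col1a1 followed in WT livers at 107 CPM per kb and Col3a1 at 99.1, close to the 109 of Col18a1. Single WT livers on CDA-HFD ran from 90.4 to 143 for Col18a1, 69.7 to 150 for Col1a1 and 67.3 to 123 for Col3a1. Col18a1 therefore did not lead in every one of them. In KO livers on CDA-HFD, Col3a1 averaged 49.9 CPM per kb and Col1a1 49.4, far below the 175 of Col18a1. KO liver 5 differed, with Col1a1 at 135 and Col18a1 at 130. The remaining chains spread over several orders of magnitude, down to Col28a1, Col9a2 and Col25a1.

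**Figure D1:**
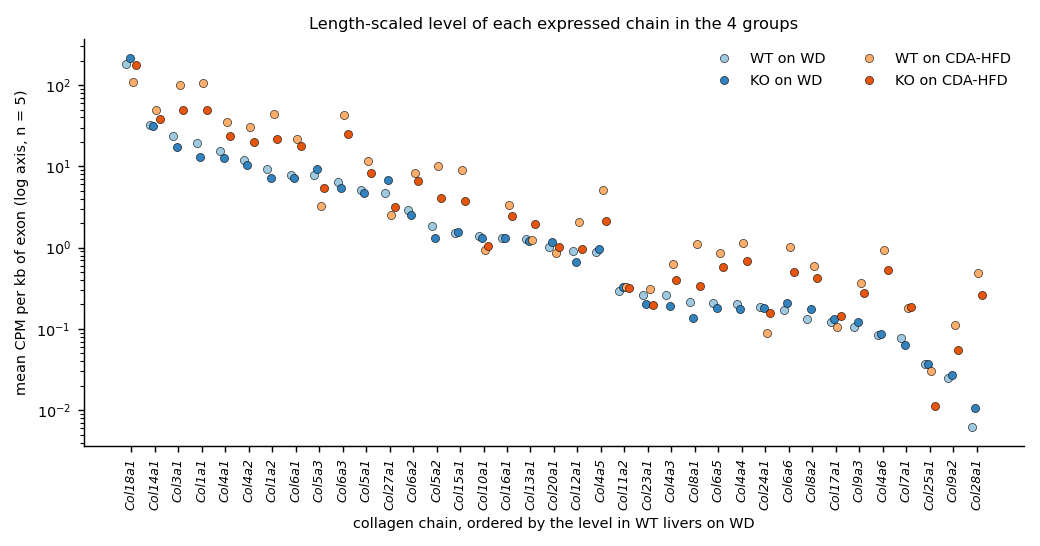
Mean level of each of the 37 expressed chains in the 4 groups (n = 5 livers each), as CPM per kb of merged exon on a log axis, ordered by the level in WT livers on WD. Col18a1 has the highest mean in every group, though not the highest level in every liver. The points of the CDA-HFD groups lie above those of the WD groups in most other chains.

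Of the 44 chains, 37 reached 10 reads in at least 1 liver. The other 7 are listed here as not expressed: Col2a1, the cartilage fibril chain, Col6a4, Col9a1, Col11a1, Col19a1, Col22a1 and Col26a1 had at most 4 reads in any liver. Col9a2 and Col25a1 reached the minimum, with at most 16 and 12 reads, but did not pass the filter of any comparison.

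The whole family took up a small part of the liver's reads and its make-up changed with diet. Collagen chains held 0.17 to 0.272% of gene reads in WT livers on WD and 0.183 to 0.309% in KO livers of that diet. The share on CDA-HFD was 0.721, 0.454, 0.667, 0.438 and 0.722% in WT livers 1 to 5 and 0.334, 0.324, 0.295, 0.233 and 0.8% in KO livers 1 to 5. WT livers on CDA-HFD were thus all above all livers on WD, and KO liver 5 was above every WT liver while the other KO livers were below them. Of the collagen reads, Col18a1 alone took 43.4 to 60.2% in WT and 49.4 to 66.5% in KO livers on WD. In WT livers on CDA-HFD its share was 11 to 25.2%, and Col1a1, Col1a2 and Col3a1 together took 37.2 to 49.2%. In KO livers 1 to 4 on CDA-HFD, Col18a1 took 40.4 to 48.3% and those 3 fibrillar chains 19.2 to 24.1%, whereas in KO liver 5 the shares were 14.5% and 44.3%. These are shares of reads, to which long transcripts add more.

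**Figure D2:**
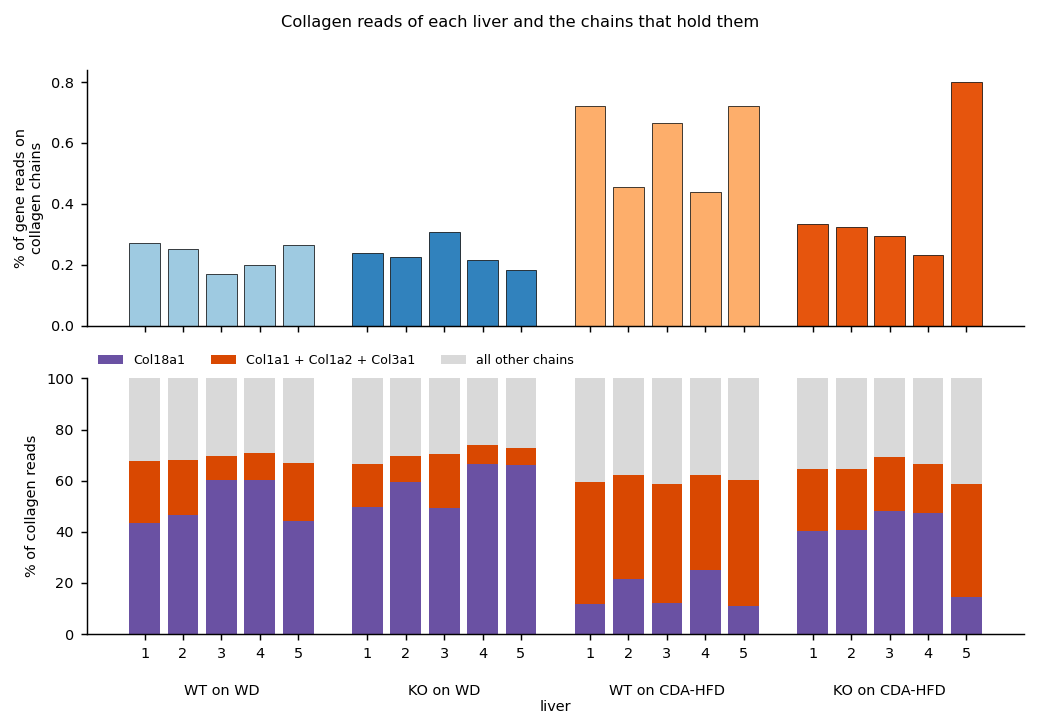
Percentage of each liver's gene reads that fell on collagen chains (top) and the split of those reads between Col18a1, the sum of Col1a1, Col1a2 and Col3a1, and all other chains (bottom), 1 bar per liver. KO liver 5 on CDA-HFD, at 0.8% of gene reads, has the make-up of the WT livers on CDA-HFD.

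The first comparison, CDA-HFD against WD in WT livers, asks how the diets differ while Cideb is intact. Most chains were higher on CDA-HFD: 25 of the 35 tested rose, 5 fell (Col5a3, Col10a1, Col18a1, Col24a1 and Col27a1) and 5 did not pass the test. Over all genes tested, 25.9% were called higher and 25.2% lower. All 6 type IV chains, all 5 tested type VI chains, Col7a1, Col15a1 and 5 of 9 tested fibrillar chains rose, as did 4 of 5 fibril associated chains and both chains of type VIII. The median log2 fold change of the tested chains was 1.34, against -0.0032 over all genes. Calls are at an adjusted p under 0.05 from edgeR's quasi-likelihood test with Benjamini-Hochberg adjustment over all genes tested. Of the 25 chains that rose, Col4a6, Col7a1, Col8a2, Col9a3 and Col28a1 were too low in both WD groups to be tested on WD and entered this test through their CDA-HFD livers. Without TMM scaling the median of all genes moved up by 0.42 in this comparison, and 3 chains in place of 5 were then called lower, with 25 still called higher.

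KO against WT on WD, which asks whether loss of Cideb in hepatocytes goes with other collagen levels on that diet, gave no called chain. Of 29 chains tested, 0 were called in either direction by edgeR and 0 by DESeq2, and 1 (Col18a1) had an unadjusted p under 0.05. Over all genes, 0.0126% were called higher and 0.0631% lower. The log2 fold changes ran from -0.65 ± 0.32 (SE) for Col8a1 to 0.55 ± 0.26 for Col27a1, with a median of -0.14 against 0.012 over all genes. Col18a1 was 1.19-fold higher in KO livers (log2 fold change 0.25 ± 0.10, edgeR adjusted p = 0.422). Within each group on WD the fibrillar chains varied widely between livers, as the values of Col1a1 show, and differences of the size of those standard errors were not detectable.

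The next comparison, KO against WT on CDA-HFD, asks whether loss of Cideb in hepatocytes goes with a different collagen output on this diet. With all 10 livers, 3 of 35 chains were higher in KO (Col5a3, Col13a1 and Col18a1) and 2 were lower (Col8a1 and Col12a1), against 8.19% of all genes called higher and 7.29% lower. The median log2 fold change of the tested chains was -0.57, against 0.0050 over all genes, and 26 of the 35 were below 0. Without KO liver 5, 24 chains were lower and 4 higher, Col24a1 being the addition, while 19.6% of all genes were called higher and 21.8% lower, and the median of the chains was -1.06, values that describe the other 9 livers and are no separate test. The 24 included all 6 type IV chains, all 5 tested type VI chains and 5 of 9 fibrillar chains. They also included Col9a3, Col23a1 and Col28a1, which had 7 to 14, 10 to 14 and 1 to 13 reads in KO livers 1 to 4. These low chains passed the filter through their WT livers, where they are higher. The call of Col12a1 was lost, and with it the count of lower chains fell to 1, when WT liver 1, 3 or 5 or KO liver 1, 2, 3 or 4 was left out. That of Col18a1 was lost when any of the same livers was left out, at log2 fold changes of 0.602 to 0.695. By exact two-sided permutation of single chains, Col5a3, Col8a1 and Col13a1 reached p = 0.00794 (unadjusted, n = 5 against 5), the smallest that this design allows, with no overlap between KO and WT livers. Only the 30 named chains, chosen partly for their calls, were compared in this way. The share of all genes without overlap was not counted, so the lack of overlap is not read as a result about the family.

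**Figure D3:**
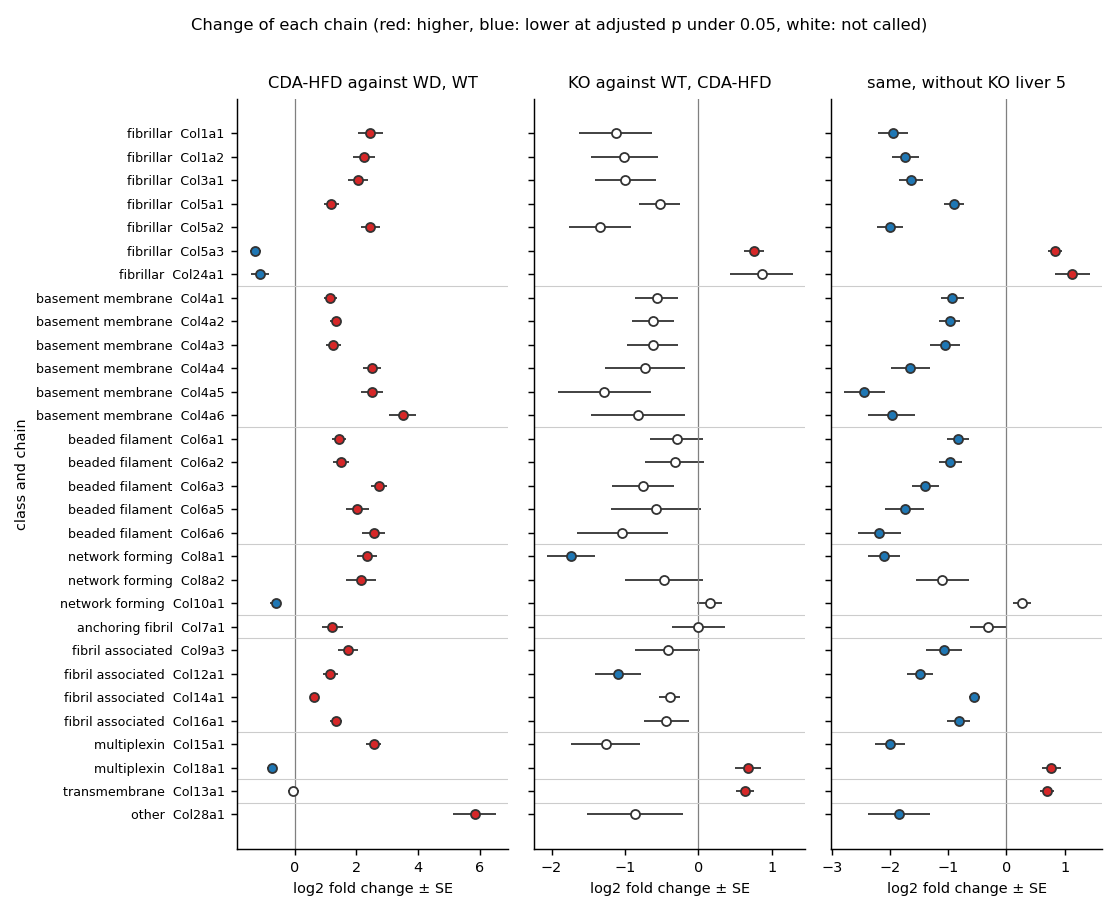
Log2 fold change with its standard error for the 30 named chains by class, for CDA-HFD against WD in WT livers (left), KO against WT on CDA-HFD with all 10 livers (middle) and without KO liver 5 (right). Red points were called higher, blue lower and white not called at an edgeR adjusted p under 0.05. The value of Col28a1 on the left rests on WD livers with 0 or 1 read and depends on the prior count.

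CDA-HFD against WD in KO livers called 9 of 33 chains higher (Col4a2, Col4a4, Col4a6, Col5a2, Col6a1, Col6a3, Col7a1, Col8a1 and Col13a1) and 2 lower (Col5a3 and Col27a1). Over all genes, 9.19% were called higher and 7.85% lower. The median of the chains was 1.09, against 0.0033 over all genes. Without KO liver 5, 7 chains were higher and 2 lower, against 9.03% and 8.37% of all genes, the calls of Col4a6 and Col5a2 being lost and the median falling to 0.51. Col4a6, Col7a1 and Col8a2 were too low to be tested on WD and entered this test through their CDA-HFD livers, and Col4a6 and Col7a1 are among the 9 called higher. The count of higher chains was not steady: it was 4 without KO liver 1, 3 without liver 2, 5 without liver 4 and 3 without liver 5 on WD, and 4 without KO liver 1 or 2 on CDA-HFD.

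The difference between the 2 diet effects, tested as an interaction, was not called for any of 35 chains by edgeR, nor by DESeq2, although 2 chains (Col13a1 and Col18a1) were higher and 2 (Col8a1 and Col15a1) lower at an unadjusted p under 0.05. Over all genes, 0.331% were called higher and 0.225% lower. Without KO liver 5, 5 chains passed with a smaller rise on CDA-HFD in KO than in WT livers (Col4a4, Col4a5, Col6a6, Col8a1 and Col15a1) and 0 with a larger rise, against 6.17% of all genes higher and 5.71% lower. The diet effects in WT and KO livers are therefore not shown to differ with all 20 livers.

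**Figure D4:**
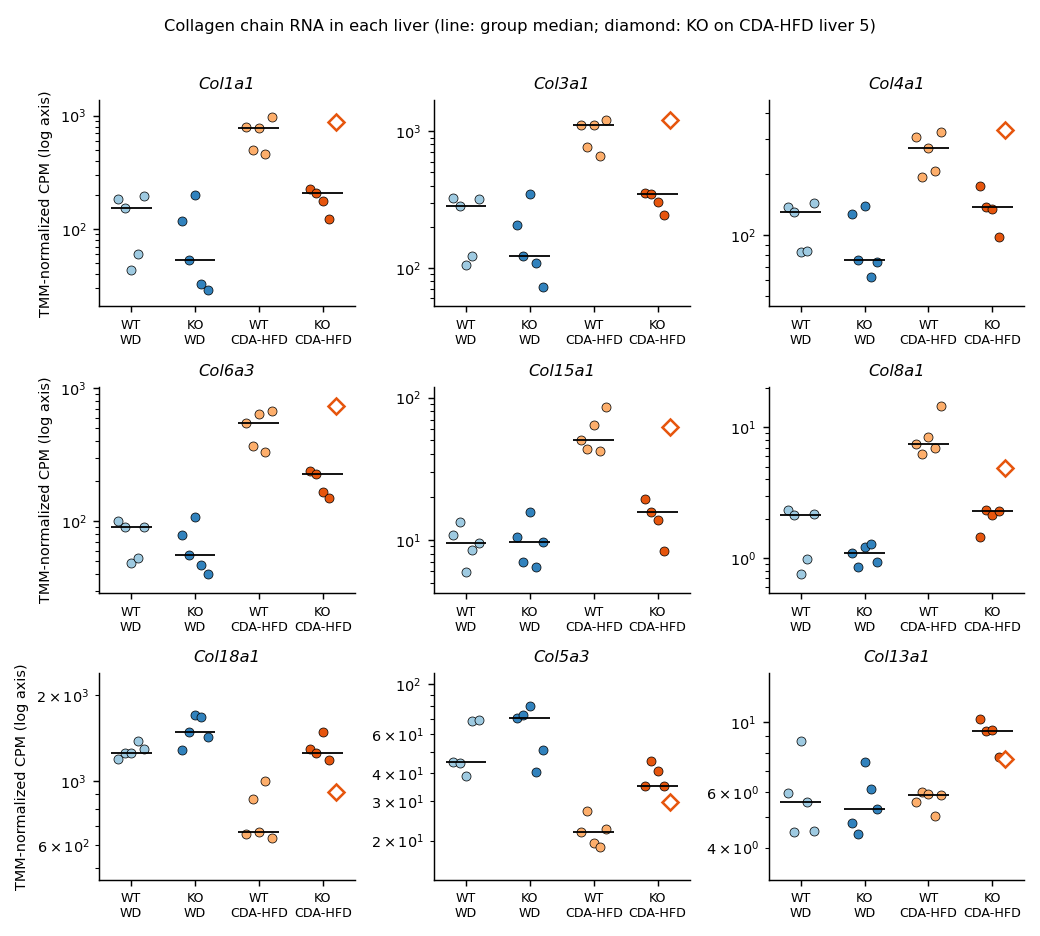
Level of 9 chains in each of the 20 livers, as TMM-normalized CPM on log axes, with the group median as a line and KO liver 5 on CDA-HFD as an open diamond. For Col1a1, Col3a1, Col4a1, Col6a3 and Col15a1 the diamond lies with or above the WT livers on CDA-HFD while the other 4 KO livers lie below them, and for Col18a1, Col5a3 and Col13a1 those 4 lie above them.

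Among the fibrillar chains, those of types I and III held most of the reads, except in KO livers 4 and 5 on WD. They rose on CDA-HFD in WT livers. The levels that follow are TMM-normalized CPM in livers 1 to 5, and a signed difference with ± is a log2 fold change with its SE. Col1a1, which pairs with Col1a2 in type I collagen, stood at 184, 153, 43.3, 60.7 and 194 CPM in WT livers on WD and at 117, 53, 199, 32.5 and 29.1 in KO livers of the WD groups. On CDA-HFD, Col1a1 stood at 800, 501, 785, 458 and 982 in WT and 227, 209, 177, 123 and 886 in KO livers. Every WT liver on CDA-HFD was above every WT liver on WD, a 5.51-fold difference (log2 fold change 2.46 ± 0.41 (SE), edgeR adjusted p = 0.000462), and KO livers 1 to 4 lay below all WT livers of that diet. KO against WT on CDA-HFD gave -1.13 ± 0.49 (edgeR adjusted p = 0.13) with all livers. Without KO liver 5, Col1a1 was 3.83-fold lower in KO (edgeR adjusted p = 0.000355).

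Col1a2, the other chain of type I collagen, stood at 161, 142, 47.1, 64.4 and 154 CPM in WT and 115, 69.6, 175, 47.6 and 37.3 in KO livers given WD. On CDA-HFD, Col1a2 stood at 719, 377, 605, 366 and 649 in WT and 193, 174, 163, 119 and 708 in KO livers. Its groups stood in the same order as those of Col1a1, and the diet difference in WT was 4.74-fold (log2 fold change 2.24 ± 0.35 (SE), edgeR adjusted p = 0.000311). Against WT on CDA-HFD, KO livers gave -1.01 ± 0.46 (edgeR adjusted p = 0.14), and -1.74 ± 0.23 (adjusted p = 0.000354) without KO liver 5. The ratio of Col1a1 to Col1a2 reads had a geometric mean of 1.06 in WT livers on WD and 1.29 on CDA-HFD, and of 0.86 and 1.15 in KO livers. By two-sided exact permutation of the livers these diet differences gave p = 0.0397 and 0.0317, and 0.113 and 0.106 after adjustment over the 20 ratio comparisons made.

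Col3a1, the type III chain found in fibrils with type I, stood at 323, 283, 104, 123 and 321 CPM in WT and 205, 123, 350, 109 and 72.9 in the KO livers fed WD. On CDA-HFD, Col3a1 stood at 1110, 766, 1120, 660 and 1210 in WT and 355, 350, 302, 242 and 1200 in KO livers. The order of the groups was that of type I, with a 4.18-fold diet difference in WT (log2 fold change 2.06 ± 0.34 (SE), edgeR adjusted p = 0.000395). KO livers on CDA-HFD differed from WT by -0.997 ± 0.41 on the log2 scale (edgeR adjusted p = 0.113), and were 3.12-fold lower without KO liver 5 (adjusted p = 0.000279).

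The type V chains, which sit in the core of type I fibrils and limit their width, did not move together. Col5a1 stood at 54.9, 48.8, 25.2, 30.5 and 57.8 CPM in WT and 47.7, 31.9, 61, 32 and 25.4 in KO livers of the WD groups. On CDA-HFD, Col5a1 stood at 109, 80.9, 104, 75.1 and 130 in WT and 59.8, 59.1, 52.7, 42.1 and 133 in KO livers. This was a 2.28-fold rise in WT (edgeR adjusted p = 0.00134), with all WT livers on CDA-HFD above all WT livers on WD. KO against WT on CDA-HFD was -0.53 ± 0.28 (adjusted p = 0.206), or -0.90 ± 0.17 (adjusted p = 0.00185) without KO liver 5.

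Col5a2 stood at 23.1, 20.6, 8.17, 10.7 and 25.6 CPM in WT and 16.7, 7.23, 24.6, 8.13 and 6.97 in KO livers given WD. On CDA-HFD, Col5a2 stood at 125, 64.7, 111, 68.1 and 121 in WT and 27.9, 27.4, 21.5, 21.1 and 96.2 in KO livers. Its diet difference in WT was 5.49-fold (log2 fold change 2.46 ± 0.32 (SE), edgeR adjusted p = 9.67e-05), and it also rose in KO livers by 3.09-fold (adjusted p = 0.0479), a call lost without KO liver 5 (adjusted p = 0.0763). On CDA-HFD it was just short of the threshold for KO against WT (log2 fold change -1.34 ± 0.42 (SE), edgeR adjusted p = 0.0532), and was 4-fold lower without KO liver 5 (adjusted p = 0.000163).

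Col5a3 went the other way. It stood at 44.8, 44.4, 38.7, 68.4 and 69 CPM in WT and 70.8, 73, 80.1, 40.6 and 50.9 in the KO livers fed WD. On CDA-HFD, Col5a3 stood at 21.8, 27.2, 19.5, 18.7 and 22.6 in WT and 35.2, 45.4, 40.8, 35.1 and 29.6 in KO livers. All KO livers on CDA-HFD, KO liver 5 included, were above all WT livers of that diet, a 1.69-fold difference (log2 fold change 0.76 ± 0.14 (SE), edgeR adjusted p = 0.0122) that was 1.78-fold without KO liver 5. Col5a3 fell on CDA-HFD in WT by 2.43-fold (adjusted p = 0.000145) and in KO livers by 1.7-fold (adjusted p = 0.0175), while the interaction was not called (adjusted p = 0.366). The read ratio of Col5a3 to Col5a1 was 0.816 to 2.25 in WT and 1.27 to 2.29 in KO livers on WD, and 0.174 to 0.337 in WT and 0.223 to 0.832 in KO livers on CDA-HFD. Both diet differences in that ratio reached p = 0.00794, the smallest that exact permutation of 5 against 5 livers allows, or 0.0794 after adjustment over 20 comparisons, and KO liver 5 held the lowest ratio of its group.

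Col24a1, a minor fibrillar chain of low level, stood at 0.862, 1.55, 1.66, 1.69 and 1.39 CPM in WT and 0.92, 1.94, 1.58, 1.37 and 1.17 in KO livers of the WD groups. On CDA-HFD, Col24a1 stood at 0.572, 1.13, 0.552, 0.671 and 0.428 in WT and 0.906, 1.71, 1.6, 1.54 and 0.3 in KO livers. Its livers overlapped between the diets. It fell with diet in WT (log2 fold change -1.12 ± 0.29 (SE), edgeR adjusted p = 0.00675) and was 2.18-fold higher in KO than in WT livers on CDA-HFD without KO liver 5 (adjusted p = 0.0126), against 0.174 with all livers. Col27a1, named after its values were seen, was lower on CDA-HFD in both WT (1.83-fold, edgeR adjusted p = 0.0141) and KO livers (2.17-fold, adjusted p = 0.00745), and did not pass between KO and WT on either diet. Col11a2, at 1.03 to 3.42 CPM in all livers, passed in no comparison.

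Basement membrane chains all rose on CDA-HFD in WT livers. Col4a1, which with Col4a2 forms the type IV network of nearly all basement membranes, stood at 138, 130, 82.8, 83.9 and 145 CPM in WT and 128, 75.9, 139, 62.4 and 73.6 in KO livers given WD. On CDA-HFD, Col4a1 stood at 305, 195, 269, 207 and 325 in WT and 175, 138, 135, 98.1 and 333 in KO livers. The diet difference in WT was 2.23-fold (log2 fold change 1.16 ± 0.20 (SE), edgeR adjusted p = 0.000598), with no overlap between the WT livers of the diets. For KO against WT on CDA-HFD it gave -0.57 ± 0.29 (adjusted p = 0.189), and -0.93 ± 0.19 (adjusted p = 0.00331) without KO liver 5.

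Col4a2 stood at 93.2, 81.7, 60.5, 61.9 and 105 CPM in WT and 81.5, 63.6, 89.2, 51.8 and 60 in the KO livers fed WD. On CDA-HFD, Col4a2 stood at 242, 156, 227, 159 and 232 in WT and 131, 102, 101, 79.6 and 251 in KO livers. It rose with diet in WT by 2.51-fold (edgeR adjusted p = 0.000148) and in KO livers by 1.92-fold (adjusted p = 0.0461). On CDA-HFD the KO livers gave -0.62 ± 0.28 against WT (adjusted p = 0.146), and -0.98 ± 0.18 without KO liver 5 (adjusted p = 0.00168). The ratio of Col4a1 to Col4a2 reads, whose genes lie head to head, stayed between 1.19 and 1.59 in all 20 livers, and its geometric mean was 1.28 to 1.43 in the 4 groups.

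The chains Col4a3, Col4a4 and Col4a5 form the type IV network known from the kidney glomerulus, and were much lower. Col4a3 stood at 1.72, 1.63, 3.63, 2.68 and 3.21 CPM in WT and 2.02, 1.63, 2.14, 1.98 and 1.72 in KO livers of the WD groups. On CDA-HFD, Col4a3 stood at 6.8, 5.78, 8.06, 4.3 and 6.04 in WT and 2.79, 2.73, 1.86, 4.63 and 8.16 in KO livers, a 2.38-fold rise in WT (edgeR adjusted p = 0.00122). Between KO and WT on CDA-HFD the log2 fold change was -0.62 ± 0.35 (adjusted p = 0.224), and -1.06 ± 0.25 without KO liver 5 (adjusted p = 0.00687).

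Col4a4 stood at 2.04, 2.15, 2.72, 1.98 and 1.82 CPM in WT and 1.75, 2.1, 2.61, 1.52 and 1.41 in KO livers given WD. On CDA-HFD, Col4a4 stood at 19.3, 6.98, 16.6, 7.99 and 10.3 in WT and 4.25, 4.5, 2.26, 4.63 and 21.2 in KO livers. It rose 5.65-fold in WT (edgeR adjusted p = 5.99e-05) and 3.96-fold in KO livers (adjusted p = 0.0348), the latter 2.07-fold without KO liver 5. For KO against WT on CDA-HFD the adjusted p was 0.356 with all livers and 0.00272 without KO liver 5, when it was 3.14-fold lower. The read ratio of Col4a3 to its neighbour Col4a4 had a geometric mean of 1.15 on WD and 0.537 on CDA-HFD in WT livers (exact p = 0.0159, adjusted 0.106), a difference that did not pass after adjustment.

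Col4a5 stood at 9.48, 7.82, 3.1, 4.17 and 5.47 CPM in WT and 6.99, 4.59, 9.69, 7.37 and 3.99 in the KO livers fed WD. On CDA-HFD, Col4a5 stood at 55.3, 19.9, 46.8, 19 and 31.9 in WT and 8.15, 8.11, 4.26, 4.93 and 45.9 in KO livers. KO livers 1 to 4 on CDA-HFD did not leave the range of the WD livers, and KO liver 5 had a level seen in WT livers on CDA-HFD. The diet difference in WT was 5.7-fold (edgeR adjusted p = 0.000198), and that in KO livers was 1.15 ± 0.63 on the log2 scale with all livers and -0.0383 ± 0.28 without KO liver 5 (adjusted p = 0.224 and 0.943). The interaction was -1.38 ± 0.77 (adjusted p = 0.398), and -2.55 ± 0.51 (adjusted p = 0.0057) without it. KO against WT on the same diet was -1.28 ± 0.63 (adjusted p = 0.171), or -2.44 ± 0.36 (adjusted p = 0.000571) without KO liver 5.

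Col4a6, which joins Col4a5 in some basement membranes, stood at 0.705, 1.29, 0.454, 0.694 and 0.219 CPM in WT and 1.1, 0.467, 1.4, 0.456 and 0 in KO livers of the WD groups. On CDA-HFD, Col4a6 stood at 11.7, 3.6, 11, 4.43 and 6.99 in WT and 1.81, 3.11, 1.13, 1.62 and 13.6 in KO livers. It rose in WT by 11.3-fold (log2 fold change 3.50 ± 0.45 (SE), edgeR adjusted p = 9.48e-05). In KO livers the rise passed with all livers (adjusted p = 0.0483) and not without KO liver 5 (adjusted p = 0.0868). Without that liver Col4a6 was 3.92-fold lower in KO than in WT on CDA-HFD (adjusted p = 0.00306, against 0.373 with it).

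Type VI collagen is built from Col6a1, Col6a2 and a longer chain, in most tissues Col6a3. Col6a1 stood at 42.9, 43.5, 21.7, 26 and 39.3 CPM in WT and 33.4, 33.4, 47, 25.1 and 19.9 in KO livers given WD. On CDA-HFD, Col6a1 stood at 110, 71.1, 126, 68.6 and 101 in WT and 59.6, 61, 51.9, 42.6 and 174 in KO livers. KO liver 5 was the highest of all 20 livers. Col6a1 rose with diet in WT by 2.73-fold (edgeR adjusted p = 0.000311) and in KO livers by 2.46-fold (adjusted p = 0.0393). KO against WT on CDA-HFD gave -0.30 ± 0.36 (adjusted p = 0.576), and -0.83 ± 0.19 without KO liver 5 (adjusted p = 0.00506).

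Col6a2 stood at 30.4, 33.3, 14.4, 15.3 and 28.6 CPM in WT and 23.3, 22.2, 32.6, 14.6 and 11.9 in the KO livers fed WD. On CDA-HFD, Col6a2 stood at 79.5, 50, 89.9, 49.3 and 75.4 in WT and 41.6, 38.4, 35.7, 25.7 and 134 in KO livers. Its pattern was that of Col6a1: 2.8-fold higher on CDA-HFD in WT (edgeR adjusted p = 0.000637), at an adjusted p of 0.0502 for the same difference in KO livers, and 1.95-fold lower in KO than WT on CDA-HFD without KO liver 5 (adjusted p = 0.00336, against 0.591 with it). The read ratio of Col6a1 to Col6a2 lay between 1.29 and 1.72 in all livers, with geometric means of 1.39 to 1.55 in the groups.

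Col6a3 had a larger diet fold in WT than Col6a1 and Col6a2, a difference between chains that was not tested. It stood at 99.7, 91, 48.7, 52.8 and 90.1 CPM in WT and 78.9, 55.4, 107, 46.9 and 40.4 in KO livers of the WD groups. On CDA-HFD, Col6a3 stood at 548, 369, 636, 329 and 673 in WT and 238, 228, 165, 149 and 734 in KO livers. All livers on CDA-HFD, of either vector, were above all livers on WD. The difference was 6.64-fold in WT (log2 fold change 2.73 ± 0.27 (SE), edgeR adjusted p = 2.28e-05) and 4.64-fold in KO livers (adjusted p = 0.00972), or 2.96-fold without KO liver 5 (adjusted p = 0.00262). The KO livers differed from WT on CDA-HFD by -0.76 ± 0.42 (adjusted p = 0.217), and -1.39 ± 0.24 without KO liver 5 (adjusted p = 0.00125).

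Col6a5 and Col6a6, alternative long chains of type VI, were low on WD, Col6a5 at 0.608 to 3.01 and Col6a6 at 0.856 to 2.89 CPM. Col6a5 stood at 2.51, 3.01, 1.29, 0.694 and 2.34 CPM in WT and 2.39, 1.87, 1.96, 0.608 and 1.8 in KO livers given WD. On CDA-HFD, Col6a5 stood at 13.3, 5.57, 10.7, 4.77 and 6.47 in WT and 3.21, 2.92, 1.8, 1.76 and 17.5 in KO livers, a 4.07-fold rise in WT (edgeR adjusted p = 0.000939). Without KO liver 5, which was above every WT liver, Col6a5 was 3.36-fold lower in KO on CDA-HFD (adjusted p = 0.00225, against 0.524 with all livers). Col6a6 stood at 1.8, 2.24, 1.14, 1.29 and 1.39 CPM in WT and 2.02, 0.856, 2.89, 1.29 and 2.51 in the KO livers fed WD. On CDA-HFD, Col6a6 stood at 14.6, 5, 14.6, 6.51 and 6.13 in WT and 1.95, 2.28, 2.59, 1.4 and 14.5 in KO livers. It rose in WT by 5.92-fold (adjusted p = 0.000159), and its interaction was -1.31 ± 0.79 (adjusted p = 0.436), or -2.45 ± 0.52 without KO liver 5 (adjusted p = 0.00742). On CDA-HFD the KO livers differed from WT by -1.04 ± 0.62 (adjusted p = 0.25), or -2.18 ± 0.37 (adjusted p = 0.00125) without that liver.

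Of the network forming chains, Col8a1, a short chain made by vessel wall and activated mesenchymal cells, had the lowest log2 fold change of any chain between KO and WT on CDA-HFD with all livers. It stood at 2.35, 2.15, 0.757, 0.992 and 2.19 CPM in WT and 1.1, 0.856, 1.21, 1.29 and 0.94 in KO livers of the WD groups. On CDA-HFD, Col8a1 stood at 7.44, 6.27, 8.4, 6.98 and 14.6 in WT and 1.46, 2.34, 2.13, 2.28 and 4.86 in KO livers. Every KO liver on CDA-HFD, KO liver 5 included, was below every WT liver of that diet, a 3.34-fold difference (log2 fold change -1.74 ± 0.33 (SE), edgeR adjusted p = 0.0132) that was 4.27-fold without KO liver 5 (adjusted p = 0.000346). Col8a1 rose with diet in WT by 5.11-fold (adjusted p = 0.000162) and in KO livers by 2.42-fold (adjusted p = 0.023). The interaction gave -1.08 ± 0.49 (adjusted p = 0.297), and passed without KO liver 5 (adjusted p = 0.0406).

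Col8a2, its type VIII partner, stood at 0.627, 0.774, 0.303, 0.595 and 0.657 CPM in WT and 0.828, 0.622, 1.3, 0.304 and 0.861 in KO livers given WD. On CDA-HFD, Col8a2 stood at 5.78, 1.34, 3.04, 2.01 and 1.19 in WT and 1.46, 1.58, 0.931, 0.956 and 4.62 in KO livers. It rose in WT by 4.45-fold (edgeR adjusted p = 0.00287) and, unlike Col8a1, was not called between KO and WT on CDA-HFD with or without KO liver 5 (adjusted p = 0.556 and 0.0763); the difference between the 2 chains was not tested. Col10a1, known from growth cartilage, stood at 5.88, 3.53, 5.15, 4.27 and 3.21 CPM in WT and 4.14, 4.51, 4.94, 3.72 and 3.29 in the KO livers fed WD. On CDA-HFD, Col10a1 stood at 2.73, 3.03, 2.98, 2.75 and 3 in WT and 3.14, 3.99, 2.99, 3.82 and 2.28 in KO livers. It fell in WT by 1.52-fold (adjusted p = 0.0134), a call lost without TMM scaling, and was not called between KO and WT on CDA-HFD with or without KO liver 5 (adjusted p = 0.541 and 0.189).

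Col7a1, the anchoring fibril chain, stood at 0.47, 0.602, 0.832, 0.794 and 1.31 CPM in WT and 0.368, 0.622, 1.03, 0.532 and 0.705 in KO livers of the WD groups. On CDA-HFD, Col7a1 stood at 2.41, 1.06, 2.38, 1.14 and 2.43 in WT and 1.25, 2.15, 1.66, 1.03 and 3.36 in KO livers. It rose 2.33-fold in WT (edgeR adjusted p = 0.0103) and 2.91-fold in KO livers (adjusted p = 0.0197). KO and WT livers on CDA-HFD overlapped, with a log2 fold change of 0.000884 ± 0.36, or -0.31 ± 0.32 without KO liver 5, neither called.

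Of the fibril associated chains, 4 of 5 tested rose with diet in WT livers. Col12a1, which binds type I fibrils, stood at 13.2, 14.4, 10.6, 9.92 and 22 CPM in WT and 15.1, 11.4, 9.69, 7.06 and 7.91 in KO livers given WD. On CDA-HFD, Col12a1 stood at 33.4, 23.9, 33, 20.6 and 47.4 in WT and 12.7, 11.3, 9.24, 12.4 and 28.6 in KO livers. It rose in WT by 2.24-fold (edgeR adjusted p = 0.00258). It was lower in KO than in WT on CDA-HFD by 2.14-fold (log2 fold change -1.10 ± 0.31 (SE), edgeR adjusted p = 0.0398), or 2.79-fold without KO liver 5 (adjusted p = 0.00065), which lay inside the WT range.

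Col14a1, the most abundant chain of this class per length, had its lowest, middle and highest WT livers on WD at 182, 249 and 253 CPM and stood at 250, 237, 260, 198 and 165 in the KO livers fed WD. On CDA-HFD, Col14a1 stood at 389, 326, 366, 343 and 325 in WT and 254, 238, 238, 228 and 379 in KO livers. Its rise in WT was 1.54-fold (log2 fold change 0.62 ± 0.12 (SE), edgeR adjusted p = 0.000979), the smallest among the 25 chains that rose. KO against WT on CDA-HFD gave -0.39 ± 0.14 (adjusted p = 0.0821), and -0.55 ± 0.0935 (adjusted p = 0.0012) without KO liver 5.

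Col16a1 stood at 10.2, 9.89, 7.26, 6.45 and 10.2 CPM in WT and 9.57, 9.57, 13.9, 6.08 and 5.95 in KO livers of the WD groups. On CDA-HFD, Col16a1 stood at 30.6, 14.7, 24.4, 18.4 and 24.1 in WT and 13.9, 14.6, 12.2, 10.1 and 32.3 in KO livers, a 2.53-fold rise in WT (edgeR adjusted p = 0.000242). It was 1.77-fold lower in KO on that diet without KO liver 5 (adjusted p = 0.00661, against 0.323 with it). Col9a3 stood at 0.47, 0.43, 0.378, 0.198 and 0.584 CPM in WT and 0.644, 0.156, 0.932, 0.304 and 0.313 in KO livers given WD. On CDA-HFD, Col9a3 stood at 1.97, 0.775, 1.33, 1.21 and 1.81 in WT and 0.557, 0.887, 0.731, 0.515 and 2.58 in KO livers, 3.33-fold higher in WT (adjusted p = 0.000905). Between KO and WT on that diet it gave -0.42 ± 0.44 (adjusted p = 0.523), and -1.07 ± 0.31 (adjusted p = 0.017) without KO liver 5. Col9a3 had only 7 to 14 reads in KO livers 1 to 4 and entered that test through its WT livers. Col20a1, at 4.23 to 8.28 CPM over all livers, passed in no comparison.

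The multiplexins moved in opposite directions. Col15a1, found where basement membranes meet the matrix below them, stood at 10.8, 13.4, 5.9, 8.53 and 9.49 CPM in WT and 10.4, 6.92, 15.7, 6.46 and 9.63 in the KO livers fed WD. On CDA-HFD, Col15a1 stood at 50, 43.6, 64.7, 42.2 and 85.4 in WT and 19.2, 15.7, 13.8, 8.31 and 62.4 in KO livers. It had the smallest adjusted p of any chain for diet in WT, a 5.91-fold rise (log2 fold change 2.56 ± 0.24 (SE), edgeR adjusted p = 1.94e-05). Without KO liver 5 it was 4.01-fold lower in KO than in WT on CDA-HFD (adjusted p = 0.00035, against 0.0852 with all livers), and the interaction was -2.03 ± 0.39 (adjusted p = 0.00519, against 0.299).

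Col18a1, whose end fragment is known as endostatin, stood at 1200, 1250, 1250, 1380 and 1300 CPM in WT and 1290, 1480, 1700, 1680 and 1430 in KO livers of the WD groups. On CDA-HFD, Col18a1 stood at 657, 868, 667, 1000 and 635 in WT and 1300, 1250, 1490, 1190 and 914 in KO livers. All WT livers on CDA-HFD were below all WT livers on WD, a 1.68-fold fall (log2 fold change -0.74 ± 0.14 (SE), edgeR adjusted p = 0.00121). KO livers 1 to 4 on CDA-HFD were above every WT liver of that diet, and KO liver 5 was inside the WT range. The difference between KO and WT on CDA-HFD was 1.6-fold (log2 fold change 0.68 ± 0.18 (SE), edgeR adjusted p = 0.0319), and 1.71-fold without KO liver 5 (adjusted p = 0.00366). The interaction, 0.44 ± 0.20, was not called (adjusted p = 0.31). The summed level of 6 hepatocyte markers (Alb, Ttr, Apoa1, Tat, Cps1 and Serpina1c) was 53800 to 94300 CPM in WT and 64500 to 80500 in KO livers on WD, 29200 to 65000 in WT livers on CDA-HFD, 65500 to 94600 in KO livers 1 to 4 on CDA-HFD and 31100 in KO liver 5. Most of that sum is Alb, which was called in no comparison, and 3 of the 6 were lower for diet in WT, while 0 were called between KO and WT on CDA-HFD, or 3 higher without KO liver 5. The part of hepatocyte RNA in the result for Col18a1 was not tested.

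Col13a1, a transmembrane collagen of cell adhesion sites, was called between KO and WT on CDA-HFD but not between the diets in WT livers. It stood at 5.96, 4.47, 8.7, 5.56 and 4.52 CPM in WT and 4.78, 4.43, 7.46, 6.15 and 5.32 in KO livers given WD. On CDA-HFD, Col13a1 stood at 5.59, 5.99, 5.91, 5.04 and 5.85 in WT and 10.2, 9.38, 9.44, 7.72 and 7.62 in KO livers. All KO livers on CDA-HFD were above all WT livers of that diet, a 1.56-fold difference (log2 fold change 0.64 ± 0.12 (SE), edgeR adjusted p = 0.0137) that was 1.61-fold without KO liver 5. The diet difference was -0.0493 ± 0.18 in WT and 0.65 ± 0.17 in KO livers (adjusted p = 0.0238), and the interaction was not called (adjusted p = 0.191). Without TMM scaling the KO against WT difference dropped to 0.44 on the log2 scale and was not called. Col17a1 and Col23a1, the other transmembrane chains tested, were at 0.269 to 1.26 and 0.634 to 2.99 CPM over all livers.

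Col28a1 was read on WD at most once per liver, in WT and KO alike. On CDA-HFD, Col28a1 stood at 5.02, 1.76, 1.93, 1.75 and 1.43 CPM in WT and 0.836, 0.761, 0.0665, 0.956 and 3.78 in KO livers, so WT liver 1 and KO liver 5 were the highest. The diet difference in WT was called (edgeR adjusted p = 5.96e-05), and KO was 3.61-fold lower than WT on CDA-HFD without KO liver 5 (adjusted p = 0.0167, against 0.361 with all livers). Col28a1 had only 1 to 13 reads in KO livers 1 to 4 and entered the test without KO liver 5 through its WT livers.

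Genes that handle collagen were read from 6 lists. Counts of their members stand against the shares over all genes: 25.9% higher and 25.2% lower for diet in WT, and 8.19% higher and 7.29% lower for KO against WT on CDA-HFD, or 19.6% and 21.8% without KO liver 5. A count of 1 or 2 genes called between KO and WT on CDA-HFD with all livers is not read as a result about a list. Of 17 genes for folding and hydroxylation in the endoplasmic reticulum, 16 were tested for diet in WT, where 7 rose and 2 fell, and 15 for KO against WT on CDA-HFD, where 2 rose and 0 fell, or 3 and 7 without KO liver 5. Plod1, a lysyl hydroxylase that modifies procollagen, had the smallest adjusted p of that list between KO and WT on CDA-HFD. It averaged 90.7 ± 9.27 CPM (SD, n = 5) in WT and 96.3 ± 12.8 in KO livers on WD, and 60.9 ± 3.29 in WT and 78.5 ± 4.1 in KO livers on CDA-HFD (log2 fold change 0.36 ± 0.0705, edgeR adjusted p = 0.0138, and 0.39 ± 0.0703 without KO liver 5).

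Of 13 genes for propeptide cleavage and crosslinking, 12 were tested. With diet in WT, 9 rose and 2 fell, and between KO and WT on CDA-HFD 1 was higher and 2 lower, or 1 and 6 without KO liver 5. Lox, the lysyl oxidase that crosslinks fibrils, averaged 1.7 ± 0.998 CPM in WT and 0.785 ± 0.347 in KO livers on WD, and 15.2 ± 6.92 in WT and 3.63 ± 3.07 in KO livers on CDA-HFD. Its log2 fold change between KO and WT on CDA-HFD was -2.07 ± 0.47 (edgeR adjusted p = 0.0201), and -2.75 ± 0.34 (adjusted p = 0.00026) without KO liver 5, over 1.5 times the fold.

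Of 12 genes for collagen breakdown and its inhibitors, 11 were tested on CDA-HFD. With diet in WT, 10 rose and 0 fell, and between KO and WT on CDA-HFD 4 were lower and 0 higher, or 10 lower without KO liver 5. Mmp8, Mmp9 and Timp1 were too low on WD to be tested there and entered the diet test through their CDA-HFD livers. Mmp8 and Timp1 are among the 10 that rose, and Mmp8, Mmp9 and Timp1 among the 4 lower in KO. On CDA-HFD, Mmp8 averaged only 2.14 ± 0.746 CPM in WT and 0.579 ± 0.551 in KO livers. Mmp8 also entered the test of KO against WT on that diet through its WT livers, where it is higher. Mmp13, a collagenase, ranged from 3.53 to 7.75 CPM in WT and from 1.14 to 1.86 in KO livers on CDA-HFD, KO liver 5 included, so the groups did not overlap (log2 fold change -1.94 ± 0.23, edgeR adjusted p = 0.00322, and -1.90 ± 0.25 without that liver).

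Of 10 collagen receptors, 9 were tested: 8 rose with diet in WT, and 1 was lower in KO on CDA-HFD, or 6 without KO liver 5. That receptor, Lair1, an inhibitory receptor of immune cells, averaged 28.7 ± 4.99 CPM in WT and 13.5 ± 4.34 in KO livers on CDA-HFD (log2 fold change -1.09 ± 0.20, edgeR adjusted p = 0.0122, and -1.30 ± 0.14 without KO liver 5). Of 10 TGF-beta pathway genes, 6 rose with diet in WT and 3 were lower in KO on CDA-HFD, or 6 without KO liver 5. Tgfb1, the ligand best known to drive collagen transcription, averaged 34.6 ± 7.1 CPM in WT and 18.6 ± 5.44 in KO livers on CDA-HFD (log2 fold change -0.90 ± 0.19, edgeR adjusted p = 0.0167, and -1.09 ± 0.14 without KO liver 5).

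Of 14 matrix genes other than collagens, 10 rose and 1 fell with diet in WT. Between KO and WT on CDA-HFD 1 of the 14 was lower, Lama4, a laminin chain of vessel basement membranes (log2 fold change -0.45 ± 0.12, edgeR adjusted p = 0.0346, and -0.46 ± 0.13 without KO liver 5), and 13 were lower and 1 higher without KO liver 5. On WD, 0 genes of the 6 lists were called between KO and WT, and 0 were called for the interaction with all 20 livers. The interaction without KO liver 5 called 1 folding gene higher and 3 lower, 1 crosslinking gene higher and 1 lower, and 5 breakdown, 1 receptor, 4 TGF-beta and 7 matrix genes lower, against 6.17% of all genes higher and 5.71% lower.

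Markers of several cell types moved with the collagen chains, and their counts stand against the same shares over all genes, 25.9% higher and 25.2% lower for diet in WT and 8.19% and 7.29% (19.6% and 21.8% without KO liver 5) for KO against WT on CDA-HFD. The summed level of 8 stellate cell markers was 446 to 626 CPM in WT and 476 to 576 in KO livers on WD, 743 to 1020 in WT livers on CDA-HFD, 655 to 763 in KO livers 1 to 4 on CDA-HFD and 1010 in KO liver 5. Of those 8, 6 rose with diet in WT, and 2 were lower in KO on CDA-HFD, or 5 without KO liver 5. A large part of the stellate sum is Reln, at means of 392 CPM in WT and 413 in KO livers on CDA-HFD. Lrat (52.8 in WT and 56.9 in KO) and Colec11 (44.2 and 50) also had higher means in KO on that diet. Reln, Lrat and Colec11 were not called between KO and WT on CDA-HFD, with or without KO liver 5. The 6 portal fibroblast markers summed to 53.6 to 111 CPM in WT livers on CDA-HFD, 34.2 to 49.7 in KO livers 1 to 4 and 130 in KO liver 5. Of these 6, 5 rose with diet in WT, 0 were called in KO against WT, and 4 were lower without KO liver 5.

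Myofibroblast markers went differently for KO liver 5. The sum of Acta2, Tagln, Postn and Cnn1 was 24.8 to 58.1 CPM in WT and 24.3 to 34 in KO livers on WD. It was 39.4 to 70.3 CPM in WT livers on CDA-HFD and 18.4 to 28.5 in the KO livers of that diet, with KO liver 5 at 27.2. The WT ranges of the 2 diets overlapped, with medians of 49 on WD and 44.8 on CDA-HFD. With diet in WT, Acta2 rose, while Postn, at means of 37.9 on WD and 36.5 CPM on CDA-HFD, was not called. Acta2, the smooth muscle actin of activated stellate cells, was lower in KO on CDA-HFD with all livers (log2 fold change -1.90 ± 0.33, edgeR adjusted p = 0.0119, and -2.18 ± 0.31 without KO liver 5), as was Postn (-0.86 ± 0.17, and -0.88 ± 0.18 without KO liver 5). Tagln and Cnn1 were too low to be tested.

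The summed macrophage and cholangiocyte markers split the livers in the same way as most collagen chains, and the summed endothelial markers went the other way. The 7 macrophage markers summed to 285 to 828 CPM in WT and 229 to 456 in KO livers on WD, 1570 to 3400 in WT livers on CDA-HFD, 485 to 592 in KO livers 1 to 4 on CDA-HFD and 1990 in KO liver 5. Of these, 5 rose and 1 fell with diet in WT, and 4 were lower in KO on CDA-HFD, or 6 lower and Clec4f higher without KO liver 5. The 5 cholangiocyte markers, of cells that lie on type IV basement membranes, summed to 10.6 to 16.3 CPM in WT and 11.4 to 25.4 in KO livers on WD, 42.5 to 78.9 in WT livers on CDA-HFD, 18.9 to 39.1 in KO livers 1 to 4 and 95.3 in KO liver 5. All 5 rose with diet in WT and 0 were called in KO against WT on CDA-HFD, or 5 were lower without KO liver 5. The 7 endothelial markers summed to 716 to 788 CPM in WT livers on WD, 490 to 579 on CDA-HFD, 675 to 774 in KO livers 1 to 4 on CDA-HFD and 468 in KO liver 5. Of these, 5 fell with diet in WT, Lyve1 and Vwf not being called, and 0 were called between KO and WT on CDA-HFD, or 4 higher and Vwf lower without KO liver 5. The part of each cell type in the collagen results was not tested.

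**Figure D5:**
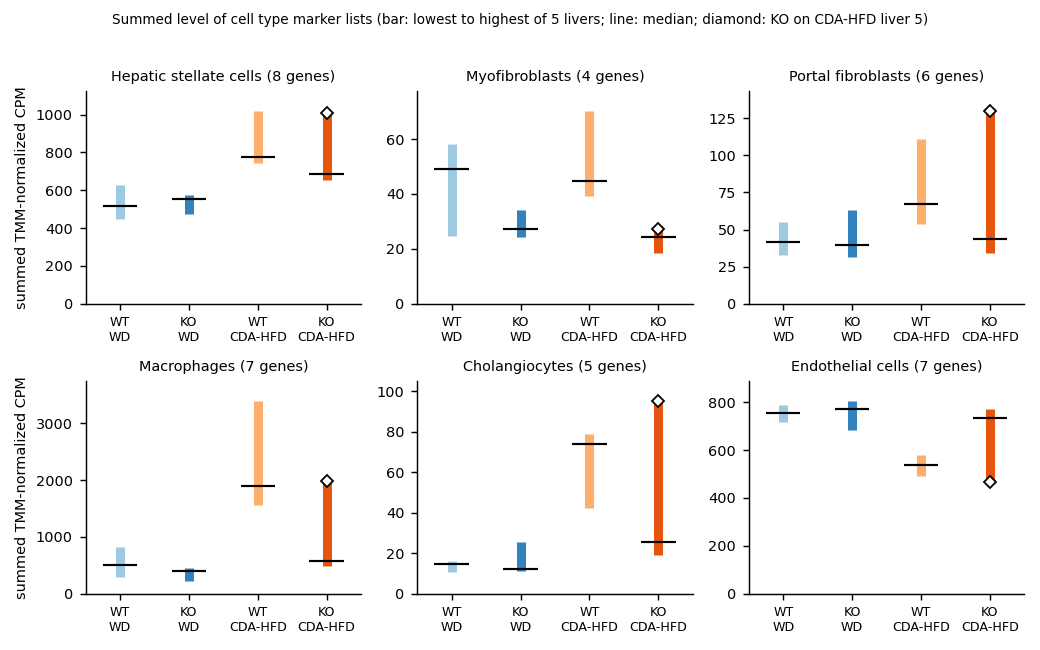
Summed TMM-normalized CPM of 6 cell type marker lists in the 4 groups, with the bar from the lowest to the highest of 5 livers, the line at the median and KO liver 5 on CDA-HFD as a diamond. The diamond lies at the top of its group for stellate cell, portal fibroblast, macrophage and cholangiocyte markers, inside it for myofibroblast markers and at the bottom for endothelial markers.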

How the data were processed

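RNA-seq counts of whole mouse liver were taken from the gene table that the authors deposited, with 1 column for each of 20 libraries, all matched to a sample by its title. The counts are raw, and the labels name the mm10 build; the aligner, the counting tool and the gene annotation are not given in the sources used here, and the sources differ on the library kit, so whether counting used strand is unknown. The 5 rows of unassigned reads (20.75 to 28.82% with no feature and 0.8 to 1.03% ambiguous, of the reads in the table) were left out. Reads on genes numbered 11697049 to 16827147 per liver. No pair of libraries within a group was the same library: chi-square over genes was 6.55 to 121 times its degrees of freedom in 40 pairs.

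Groups came from the genotype label, which names the vector, and the treatment label, which names the diet. Each comparison was fitted on its 10 libraries over all genes with edgeR 4.0.16 (R 4.3.3; filterByExpr, TMM, quasi-likelihood F test); p-values were adjusted by Benjamini and Hochberg's method over all genes tested, at a threshold of 0.05, and the interaction on all 20. Standard errors are the log2 fold change divided by the square root of F. The test was checked on simulated counts. CPM used TMM over all 20 libraries, and CPM per kb the merged exons of a GRCm38 annotation (1 kb is 1000 bases). Chains under 10 reads in every library were named as not expressed. Ratios and single chains were compared by exact two-sided permutation over livers. Alternatives were DESeq2 1.42.0, other scaling, filters and prior count, a replicate block, all 20 libraries in 1 fit and leaving out each library. Figures were drawn with matplotlib 3.10.9.

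Chains with values in every liver were 9 set ones (Col1a1, Col1a2, Col3a1, Col4a1, Col4a2, Col6a1, Col6a2, Col6a3 and Col18a1) and, in each class, up to 4 further chains called in any comparison, by the smallest p for KO against WT on CDA-HFD. For each partner list, the gene with the smallest adjusted p in that comparison was named. The members, the lists and this rule were chosen with earlier results of these data known.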

Additional observations from a re-analysis of the deposited data

Results flagged for a closer look

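In each group of 5 livers, the gap between the highest or lowest liver and its nearest neighbour was divided by the group's range, and a ratio over Dixon's critical value of 0.71 was taken to set that liver apart. Over 30 named chains in 4 groups, 23 of 120 sets of 5 livers passed, where chance gives about 1 in 20, or 6. The chains are not independent of each other, and 21 of the 23 concern KO liver 5 on CDA-HFD, the highest of its group in all 21. The same count was not made over all genes.

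For the fibrillar chains in KO liver 5, the ratio was 0.863 for Col1a1, 0.874 for Col1a2, 0.882 for Col3a1, 0.806 for Col5a1 and 0.909 for Col5a2. For type IV chains it was 0.875 for Col4a4, 0.906 for Col4a5 and 0.841 for Col4a6. The type VI chains gave 0.859 for Col6a1, 0.854 for Col6a2, 0.849 for Col6a3, 0.909 for Col6a5 and 0.908 for Col6a6. Among the type VIII chains the ratio was 0.74 for Col8a1 and 0.823 for Col8a2. The fibril associated chains gave 0.82 for Col9a3, 0.822 for Col12a1, 0.829 for Col14a1 and 0.8 for Col16a1. Col15a1 had a ratio of 0.798 and Col28a1 of 0.761.

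Levels in KO liver 5 were often several times those of its group. Col6a6, for example, stood at 14.5 CPM there and at 1.4 to 2.59 in the other 4 livers, and Col4a5 at 45.9 against 4.26 to 8.15. Col8a1 stood at 4.86 CPM against 1.46 to 2.34, still under every WT liver on CDA-HFD.

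The other 2 sets were in WT livers on CDA-HFD. Col28a1 stood at 5.02 CPM in liver 1, against 1.43 to 1.93 in the others, with a ratio of 0.859. Col8a1 stood at 14.6 CPM in liver 5, against 6.27 to 8.4, with a ratio of 0.745.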

How the results depend on the processing

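The calls for diet in WT livers held best: 25 chains higher and 5 lower whichever library was left out, and 3 lower with library size only, a setting that moved the median of all genes by 0.42 in that comparison, 0.25 for diet in KO, -0.19 for KO against WT on CDA-HFD and -0.15 for the interaction (log2). For KO against WT on CDA-HFD, the 2 chains called lower became 1 with library size only, 4 with DESeq2, 4 with all 20 libraries in 1 fit and 1 to 24 when a library was left out, the 24 being without KO liver 5. For diet in KO livers, the 9 chains called higher became 16 with library size only, 17 with DESeq2, 14 with no filter on low counts, 19 with all 20 libraries in 1 fit and 3 to 12 when a library was left out, and the 2 called lower became 1 with library size only. For the interaction, 0 to 5 chains were lower when a library was left out. The causes were not tested. The single-chain results followed across settings were the called differences of named chains and, for KO against WT on CDA-HFD, the 9 set chains, 52 in all. Of their 927 alternative values 850 stayed on their side of the threshold, 64 lost the call, 13 gained it and 0 changed direction. Calls gained by other chains, such as some of the 24 lower without KO liver 5, are not counted there. Without that liver 4 uncalled differences changed sign, Col4a5 (1.15 to -0.0383), Col24a1 (-0.225 to 0.0281) and Col11a2 for diet in KO and Col7a1 (0.000884 to -0.312) for KO against WT on CDA-HFD.

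Groups share replicate numbers, but the numbers do not pair the livers: the residuals of same-numbered livers correlated at -0.367 to 0.349, with 2, 3, 2 and 1 of 5 pairs over 0.1 in the 4 comparisons, and 1, 2, 1 and 1 of 5 livers correlated best with their own number. With the replicate block, 10 chains were lower for KO against WT on CDA-HFD and 2 were higher for diet in KO livers.

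The depth leaves 8 expressed chains (Col4a6, Col7a1, Col8a2, Col9a2, Col9a3, Col17a1, Col25a1 and Col28a1) and the 7 named as not expressed without a test between KO and WT on WD. With 5 livers a group, exact permutation cannot give less than 0.00794. Diet, feeding length and batch cannot be told apart.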
